A study of Mus musculus with 36 samples.

Results

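The colony-stimulating factors and the cytokines around interleukin-6 were followed through 10 genes. Csf1, Csf2 and Csf3 encode the 3 colony-stimulating factors, Il6, Lif and Osm encode interleukin-6 family cytokines, Il10 and Il12b encode an anti-inflammatory cytokine and an interleukin-12 subunit, and Csf2rb and Csf3r encode receptor chains. They were taken by exact gene symbol from the deposited tables, where all 10 were found among 19879 genes. The cells were BV-2, an immortalised line of mouse microglia, activated with bacterial lipopolysaccharide (LPS) and sequenced as bulk RNA. The study asked what dimethyl fumarate (DMF), its metabolite monomethyl fumarate (MMF) and cannabidiol (CBD) do to that activation.

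The 36 libraries formed 12 groups of 3. At 4 h and again at 24 h the groups were DMSO, EtOH, LPS, LPS with DMF, LPS with MMF and LPS with CBD. LPS was given at 600 ng/mL in every LPS group, DMF and MMF at 30 µM, CBD at 6 µM, and the vehicles at 0.2%. The fumarates were dissolved in DMSO and CBD in EtOH, and the sources used here do not say which vehicle the group with LPS alone carried. No group received a compound without LPS, so the compounds can be compared only on LPS-activated cells. All groups came from 1 cell line, and each experiment was repeated 3 times. Vehicle libraries carried replicate numbers 4 to 6 and all LPS libraries numbers 1 to 3. A difference between LPS and vehicle therefore cannot be told apart from one between these sets of libraries.

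M-CSF (Csf1), GM-CSF (Csf2) and G-CSF (Csf3) are growth factors of the myeloid lineage. M-CSF keeps microglia alive through its receptor Csf1r, GM-CSF acts on myeloid cells through a receptor built on the shared beta chain Csf2rb, and G-CSF acts on granulocytes and their precursors through Csf3r. Interleukin-6, LIF and oncostatin M all signal through the common chain gp130, which activates JAK kinases and STAT transcription factors and is held in check by SOCS proteins. In myeloid cells LPS is sensed by Toll-like receptor 4, and cytokine genes of these families are among the classic targets of the NF-κB and C/EBP factors that act downstream.

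The libraries held 14110424 to 26676607 counted reads. Microglial identity was checked on 12 markers, all of which were read in all 36 libraries. Their summed level was 1641 to 3010 CPM, the reads scaled to a common library total, with Csf1r and Ptprc high. P2ry12 and Tmem119, markers of resting brain microglia, were at no more than 6.13 and 13 CPM. Aif1, at 1.33 to 9.42 CPM, and Cx3cr1, at 0.571 to 21.4 CPM, were low as well. Of 14 markers of lymphocytes, neurons, other glia, fibroblasts and neutrophils, 4 reached 10 reads in a library. Mbp made up most of their sum of 41.1 to 91.2 CPM, and Snap25, Aqp4 and Col3a1 had no read.

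On the mouse assembly GRCm39, 5 of the 10 members lie on chromosome 11. Osm (chr11:4186420-4191026) and Lif (chr11:4207557-4222514) are neighbours on the plus strand with 16.53 kb between them. Il12b (chr11:44290890-44304860) and Csf3 (chr11:98592089-98594455) are on the plus strand, and Csf2 (chr11:54138097-54140493) is on the minus strand. The others are Csf1 (chr3:107648364-107667785, minus strand), Il6 (chr5:30218112-30224979, plus), Il10 (chr1:130947582-130952711, plus), Csf2rb (chr15:78209952-78238047, plus) and Csf3r (chr4:125918343-125938233, plus). All 10 are annotated as protein coding. An annotated long noncoding RNA overlaps Csf1, Csf2, Csf3, Il6 and Csf3r on the opposite strand, and the sources used here do not state whether reads were counted by strand, so reads from either partner cannot be told apart. Csf2rb has a near copy, Csf2rb2, whose coding sequence is 95.2% identical over 2631 aligned bases with an identical run of 242 bases, so the split of reads between them is uncertain.

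The 250 bases in front of the annotated start of Il6 and Lif are shown because the effect of DMF on both of these ligands was called as changed between 4 h and 24 h, by more than 2 on the log2 scale. They were read from GRCm39 on the strand of each gene, 5′ to 3′. Capitals mark matches on either strand to 4 patterns, namely the NF-κB consensus, the C/EBP pattern TTNCNNAA, the AP-1 pattern TGANTCA and the antioxidant response element core TGACNNNGC.
Il6, chr5:30217862-30218111: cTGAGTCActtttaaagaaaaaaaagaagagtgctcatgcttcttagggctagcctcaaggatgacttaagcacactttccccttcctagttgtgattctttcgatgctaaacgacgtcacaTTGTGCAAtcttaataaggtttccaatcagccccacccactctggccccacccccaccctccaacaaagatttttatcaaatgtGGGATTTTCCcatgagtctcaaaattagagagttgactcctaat
Lif, chr11:4207307-4207556: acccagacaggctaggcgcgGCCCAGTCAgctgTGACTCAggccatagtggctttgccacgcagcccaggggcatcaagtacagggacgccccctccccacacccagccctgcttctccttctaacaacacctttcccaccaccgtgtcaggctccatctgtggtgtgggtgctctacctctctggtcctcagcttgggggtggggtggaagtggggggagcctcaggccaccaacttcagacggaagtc

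The windows hold different letters. Il6 has an NF-κB match 44 to 35 bases upstream, a C/EBP match 128 to 121 bases upstream and an AP-1 match near the far end of the window. Lif has an AP-1 match and an antioxidant response element core, 217 to 211 and 230 to 222 bases upstream. Among 21770 promoters of protein-coding genes of the same length, 4.23% held the NF-κB consensus, 36.9% the C/EBP pattern, 6.17% the AP-1 pattern and 9.69% the antioxidant core. Of the 9 members whose windows were described, 2 held the NF-κB consensus (Csf1 and Il6), 4 the C/EBP pattern (Csf2, Il6, Csf2rb and Csf3r), 2 the AP-1 pattern (Il6 and Lif) and 2 the antioxidant core (Csf2 and Lif). The windows of Osm, Il10 and Il12b held none of the 4.

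**Figure D1:**
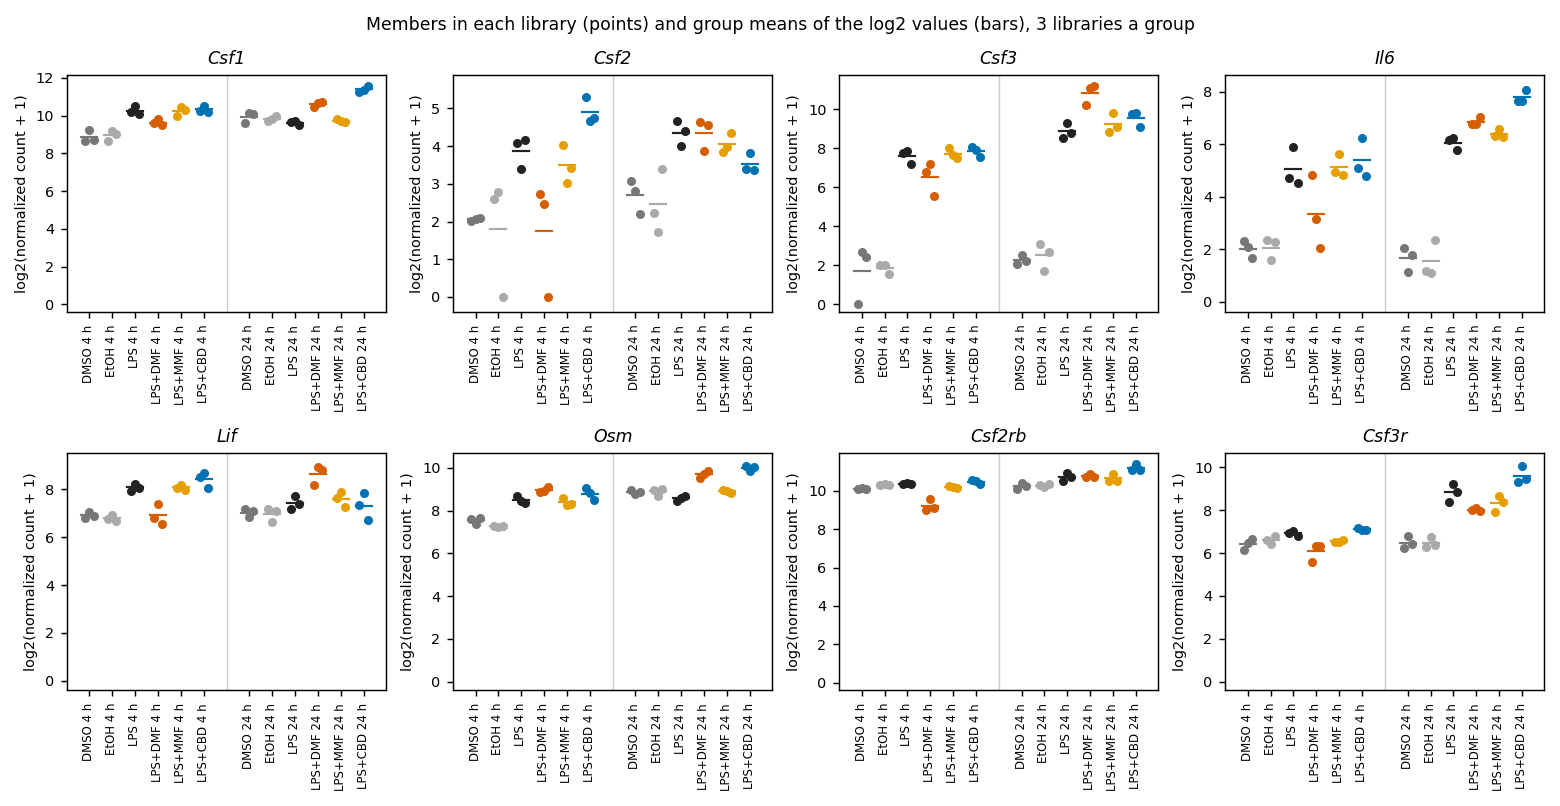
Each panel shows 1 member as log2 of the normalized count plus 1, with a point for each library and a bar at the mean of the 3 libraries of each of the 12 groups. Csf3 and Il6 sit near the floor in every vehicle library, Csf3 peaks in LPS with DMF at 24 h, and Csf1, Il6, Osm, Csf2rb and Csf3r peak in LPS with CBD at 24 h.

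The levels across the 12 groups are given as normalized counts, which are reads scaled for library size over all 36 libraries. Csf3 spanned the widest range, from 2.64 ± 0.621 (SD, n = 3) in EtOH at 4 h to 1880 ± 623 in LPS with DMF at 24 h. Il6 ran from 2.16 ± 1.67 in EtOH at 24 h to 223 ± 37.5 in LPS with CBD at 24 h. Csf1, which the cells made without LPS, ran from 474 ± 109 in DMSO at 4 h to 2701 ± 325 in LPS with CBD at 24 h. Osm ran from 152 ± 1.28 to 1021 ± 91.0, between EtOH at 4 h and LPS with CBD at 24 h, and Lif from 111 ± 10.1 in EtOH at 4 h to 408 ± 104 in LPS with DMF at 24 h. Both receptor chains were lowest in LPS with DMF at 4 h, at 609 ± 129 for Csf2rb and 68.7 ± 18.2 for Csf3r, and highest in LPS with CBD at 24 h, at 2335 ± 290 and 805 ± 238.

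The highest group stood clear of the second in Csf1, Il6, Csf2rb and Csf3r, where it was LPS with CBD at 24 h, in Csf3, where it was LPS with DMF at 24 h, and in Csf2, where it was LPS with CBD at 4 h. Csf3 in LPS with DMF at 24 h, at 1164, 2179 and 2296, lay above LPS with CBD at 24 h, at 845, 896 and 547. Csf2 and Csf3r were separated by little. The lowest Csf2 library in LPS with CBD at 4 h was at 24.5 and the highest in LPS alone at 24 h at 24.3, and the lowest Csf3r library in LPS with CBD at 24 h was at 640 and the highest in LPS alone at 24 h at 604. For Osm the libraries of LPS with CBD and LPS with DMF at 24 h overlapped, with 1097, 920 and 1046 against 731, 838 and 931. In Lif the highest group, LPS with DMF at 24 h, overlapped the second, LPS with CBD at 4 h.

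Levels of different genes were compared as RPKM, CPM divided by the exon length in kilobases. In resting cells at 4 h in DMSO, Csf2rb stood at 9.32, Osm at 5.09 and Csf1 at 4.93 on that scale, while Csf3, Il6 and Csf2 stood at 0.140, 0.0789 and 0.242. After 24 h of LPS the level of Csf3 was 19.7, above the 13.8 of Csf2rb, 9.84 of Osm and 7.95 of Csf1. In LPS with DMF at 24 h Csf3 reached 78.1, and the level of Il6 in LPS with CBD at 24 h was 5.50. Csf3 thus went from among the lowest members per length to the highest.

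Il10 and Il12b were close to the limit of the libraries. Il10, an anti-inflammatory cytokine, had a read in 34 of 36 libraries but never more than 18, with group means of 0.994 to 9.27 normalized counts. Il12b, the subunit shared by interleukin-12 and interleukin-23, had 46 reads in all, spread over 15 libraries and no more than 7 in any. It had no read in DMSO or EtOH at either time or in LPS with DMF at 4 h, and the totals of those groups allow a level of up to 0.0452 to 0.0682 CPM, counting error only. Its highest group was LPS with DMF at 24 h, with 3.13, 7.92 and 4.50 normalized counts, and Il12b passed the filter of 10 normalized counts in 3 of 6 libraries in no comparison. It was therefore not tested.

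At 4 h G-CSF, interleukin-6, M-CSF, LIF and OSM transcripts were higher in LPS than in vehicle. Of the 10 members 7 passed the filter, and 6 were called higher against DMSO at an adjusted p under 0.05, where 14.1% of 11424 genes were called, 7.7% higher. Against EtOH 5 were called higher, with 10.2% of 11491 genes called, 5.69% higher. The LPS and DMSO libraries did not overlap in any of the 7, nor did they in 35.7% of all genes tested. Both comparisons use the same 3 LPS libraries. Csf3 and Il6 passed the filter only through the LPS libraries, so they could enter the test only by differing. Because each library is a whole culture, more expressing cells and more RNA per cell cannot be told apart.

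Csf3 measured 0, 5.37 and 4.33 normalized counts in DMSO, 3.03, 2.96 and 1.92 in EtOH, and 217, 229 and 146 in LPS. The groups were far apart, with a log2 fold change of 5.87 ± 0.62 (SE) against DMSO and 5.75 ± 0.27 against EtOH (limma, adjusted p = 0.00077 and 2.09e-05). Il6, the acute-phase cytokine, was at 4.01, 3.22 and 2.17 in DMSO and at 25.3, 59.1 and 22.3 in LPS, where replicate 2 was more than the other two together. Its log2 fold change was 3.01 ± 0.44 against DMSO and 2.99 ± 0.45 against EtOH (limma, adjusted p = 0.0034 and 0.0052).

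The ligands that resting cells already made rose less. Csf1 went from 407, 600 and 414 in DMSO to 1166, 1462 and 1105 in LPS, a 2.64-fold rise (limma, adjusted p = 0.0013) with no overlap. Lif was 111, 132 and 119 in DMSO and 245, 302 and 269 in LPS, 2.23-fold (adjusted p = 0.0011). Osm was 197, 167 and 204 in DMSO and 409, 344 and 332 in LPS, 1.90-fold (adjusted p = 0.0023). Against EtOH the same 3 genes rose 2.47-fold, 2.43-fold and 2.36-fold.

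The receptor chains moved little at 4 h. Csf2rb had a log2 fold change of 0.25 ± 0.06 against DMSO (limma, adjusted p = 0.032) and 0.06 ± 0.06 against EtOH (adjusted p = 0.58). The call against DMSO was lost in all refits that left out 1 library except that without LPS replicate 2, with an adjusted p of up to 0.13. Csf3r had a log2 fold change of 0.49 ± 0.17 against DMSO and was not called (adjusted p = 0.092). Csf2, at 3.01, 3.22 and 3.25 in DMSO and 15.8, 9.49 and 17.0 in LPS, did not pass the filter.

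**Figure D2:**
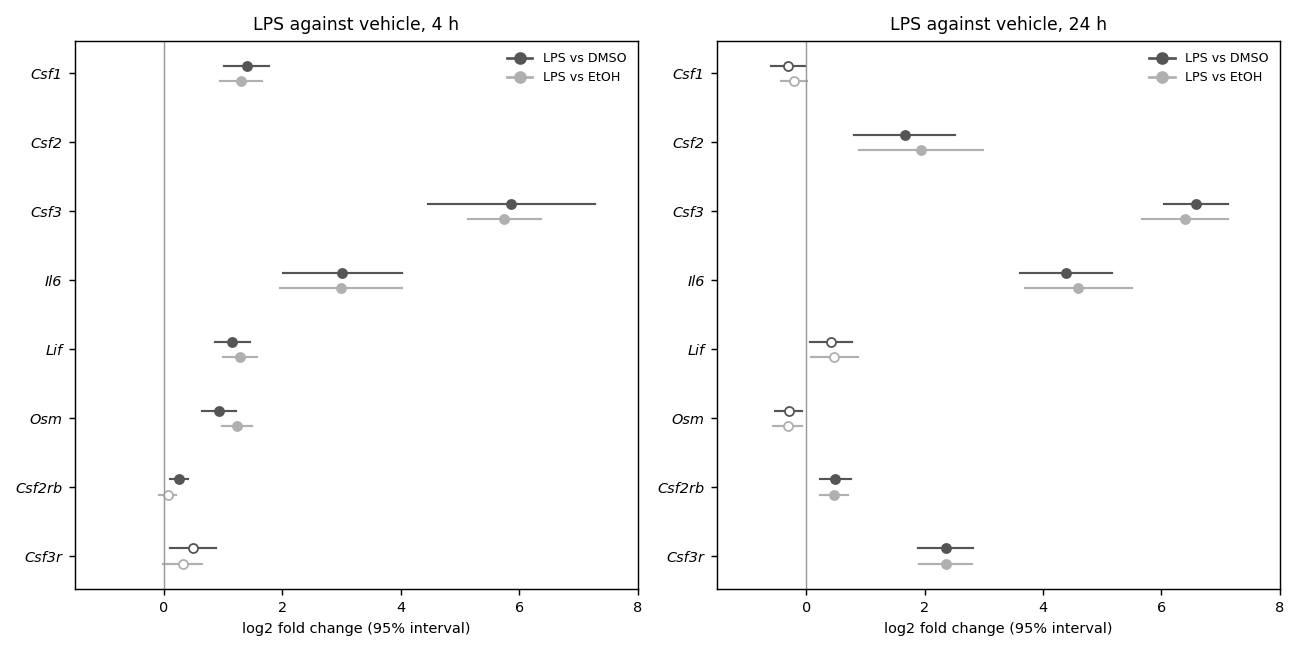
Log2 fold change of LPS alone against DMSO (dark) and EtOH (light) at 4 h and 24 h for 8 members, with 95% intervals. Filled points had an adjusted p under 0.05, and the interval of Csf1 and Osm moves from well above 0 at 4 h to near or below 0 at 24 h while that of Csf3r moves up.

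At 24 h Csf3, Il6, GM-CSF and both receptor chains were called higher in LPS than in vehicle, and M-CSF, LIF and OSM were not called. Of 8 members that passed the filter 5 were called higher against DMSO, with 22.7% of 11574 genes called, 12.1% higher, and 5 against EtOH, with 20.5% of 11775 genes called, 10.8% higher. Libraries of LPS and DMSO did not overlap in 7 of the 8, beside 39.9% of all genes tested. Csf2, Csf3 and Il6 passed the filter only through LPS libraries.

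Csf3 was at 3.16, 4.81 and 3.61 in DMSO and 368, 618 and 437 in LPS, a log2 fold change of 6.59 ± 0.24 (limma, adjusted p = 5.04e-08). Il6 was at 3.16, 1.2 and 2.41 in DMSO and 70.6, 73.8 and 54.5 in LPS, a log2 fold change of 4.39 ± 0.35 (adjusted p = 1.07e-05). Csf2, the GM-CSF gene, was at 7.38, 6.01 and 3.61 in DMSO and 24.3, 15.0 and 20.2 in LPS, a log2 fold change of 1.66 ± 0.39 (adjusted p = 0.010). None of the 3 overlapped between LPS and vehicle. Against EtOH the Csf2 call (1.94 ± 0.48, adjusted p = 0.014) was lost without LPS replicate 1 or replicate 3, with an adjusted p of 0.0515 and 0.0618.

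Among the receptors Csf3r, the G-CSF receptor, was at 74.8, 111 and 84.3 in DMSO and 333, 604 and 465 in LPS. This was a 5.12-fold rise against DMSO (limma, adjusted p = 2.34e-05) and 5.11-fold against EtOH (adjusted p = 1.54e-05). Csf2rb was at 1086, 1345 and 1222 in DMSO and 1451, 1981 and 1691 in LPS, 1.41-fold (adjusted p = 0.011). The ligand Csf3 and its receptor Csf3r were thus both higher in LPS than in vehicle at 24 h, and at 4 h Csf3r was not called.

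Csf1 had a log2 fold change of -0.30 ± 0.13 against DMSO at 24 h (limma, adjusted p = 0.12), Osm of -0.30 ± 0.10 (adjusted p = 0.054) and Lif of 0.41 ± 0.16 (adjusted p = 0.089). Without DMSO replicate 4, which at 784 was the lowest of the 3 DMSO libraries, Csf1 was called lower in LPS (adjusted p = 0.00627), and without LPS replicate 1 Lif was called higher (adjusted p = 0.0425). Against EtOH Osm was called lower without EtOH replicate 5 (adjusted p = 0.0445). The change of the LPS effect between the times was tested as an interaction, in which 9 members passed the filter. Against DMSO 4 of them were called, with 9.46% of 11911 genes called. The effect of LPS on Csf1 was smaller at 24 h by 1.72 on the log2 scale and that on Osm by 1.24 (limma, adjusted p = 0.00074 and 0.00063), and that on Csf3r was larger by 1.84 (adjusted p = 0.0022). Against EtOH 5 were called, with 9% of 11928 genes called, and Csf1, Osm and Csf3r kept their direction.

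Csf1 and Osm also changed with time in vehicle. Csf1 rose 2.08-fold between 4 h and 24 h in DMSO (limma, adjusted p = 0.0004) and 1.81-fold in EtOH (adjusted p = 0.00028). Osm rose 2.45-fold in DMSO and 3.06-fold in EtOH (adjusted p = 2.53e-05 and 7.15e-06). These were 2 of the 5 members tested in each vehicle, where 51.6% of 11482 genes were called in DMSO, 25.7% higher, and 58.6% of 11775 in EtOH, 29.1% higher. In LPS alone Csf1 fell over the same time by 0.65 on the log2 scale (adjusted p = 0.0014) and Osm had a log2 fold change of 0.07 ± 0.12 (adjusted p = 0.66).

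Within LPS alone 6 of 8 members tested differed between the times, with 48.9% of 11510 genes called, 24.7% higher and 24.3% lower. Csf3 rose 2.37-fold, Csf3r 3.74-fold, Il6 2.0-fold and Csf2rb 1.27-fold, while Csf1 fell and Lif fell by 0.66 on the log2 scale (limma, adjusted p = 0.0055). The Il6 call (adjusted p = 0.033) was lost in all refits without 1 library except that without LPS replicate 2 at 4 h, with an adjusted p of up to 0.115. That of Csf2rb (adjusted p = 0.022) was lost without LPS replicate 2 or 3 at 24 h or replicate 3 at 4 h, with an adjusted p of up to 0.0743.

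Between the vehicles the number of genes called depended on whether the fit was blocked on replicate number. By limma no member was called between DMSO and EtOH at 4 h, of 5 tested, or at 24 h, of 6 tested, with 0% of 11458 and 0.00854% of 11715 genes called. At an unadjusted p under 0.05 the members were 2 at 4 h and 0 at 24 h, and edgeR and DESeq2 called 0 at both times. In the fit blocked on replicate number, which called 876 of 11458 genes at 4 h, Csf2rb was lower in DMSO at 4 h by a log2 fold change of -0.19 ± 0.05 (adjusted p = 0.024). Same-numbered vehicle libraries did deviate together. Osm at 4 h was at 197, 167 and 204 in DMSO and at 153, 151 and 153 in EtOH, without overlap, but was called under no setting.

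DMF at 4 h was associated with lower M-CSF, LIF and receptor chain transcripts and with higher OSM. Against LPS alone 7 members passed the filter and 5 were called, 4 lower and 1 higher, where 11.1% of 11371 genes were called in either direction, 6.51% lower and 4.55% higher. In 6 of the 7 the libraries of LPS with DMF and LPS alone did not overlap, beside 30.1% of all genes tested. The median log2 fold change of the 7 was -1.11, beside 0.01 over all genes tested.

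Lif was at 245, 302 and 269 normalized counts in LPS and at 111, 165 and 93.6 in LPS with DMF. These levels with DMF were close to the 111, 132 and 119 of DMSO, with a log2 difference from DMSO of -0.02 and a 95% interval of -0.50 to 0.46. Against LPS alone Lif was 2.26-fold lower (limma, adjusted p = 0.0074). Csf1 was at 775, 899 and 718 with DMF against 1166, 1462 and 1105 without it, 1.56-fold lower (adjusted p = 0.015), and remained 1.69-fold above DMSO (adjusted p = 0.0086). Its call against LPS alone was lost without LPS with DMF replicate 3, with an adjusted p of 0.074.

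Csf3 was at 110, 142 and 45.2 with DMF, below the 217, 229 and 146 of LPS alone without overlap, and its log2 fold change was -1.11 ± 0.38 (limma, adjusted p = 0.10). Blocked on replicate number the same difference had an adjusted p of 0.0086, and by DESeq2 one of 0.032. Il6 was at 27.2, 7.96 and 3.15 with DMF against 25.3, 59.1 and 22.3, overlapping through replicate 1, with a log2 fold change of -1.70 ± 0.65 (adjusted p = 0.14). Without LPS with DMF replicate 1 Il6 was called lower (adjusted p = 0.0315), and without LPS with DMF replicate 2 Csf3 was called lower (adjusted p = 0.0297). Il6 was also called with all 36 libraries in 1 fit (adjusted p = 0.0075), but not with the block (adjusted p = 0.078) or by DESeq2 (adjusted p = 0.15).

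Osm, in contrast, was at 472, 487 and 545 with DMF and at 409, 344 and 332 without it, with no overlap. This was 1.38-fold higher than LPS alone (limma, adjusted p = 0.035) and 2.63-fold higher than DMSO (adjusted p = 8.72e-05). The call against LPS alone was lost without replicate 2 or 3 of either group, with an adjusted p of up to 0.166. Osm and its neighbour Lif therefore differed from LPS alone in opposite directions.

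Both receptor chains were lower with DMF at 4 h. Csf2rb, the common beta chain, was at 517, 756 and 553, below every DMSO, EtOH and LPS library of that time, and was 2.21-fold lower than LPS alone (limma, adjusted p = 0.0013) and 1.85-fold lower than DMSO (adjusted p = 0.0017). Csf3r was at 47.6, 79.6 and 78.8 against 121, 130 and 110, 1.79-fold lower (adjusted p = 0.042). That call was lost in all refits without 1 library except the one without LPS with DMF replicate 2, with an adjusted p of up to 0.109.

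Against LPS alone at 24 h LPS with DMF had higher G-CSF, LIF, OSM, M-CSF and interleukin-6 transcripts and a lower G-CSF receptor transcript. Of 8 members tested 6 were called, 5 higher and 1 lower, where 25.1% of 11670 genes were called, 11.9% higher and 13.2% lower. No overlap was seen in 6 of the 8, beside 42.4% of all genes tested. The median log2 fold change of the 8 was 0.89, beside -0.01 over all genes tested.

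Csf3 was at 368, 618 and 437 in LPS and at 1164, 2179 and 2296 in LPS with DMF, 3.87-fold higher (limma, adjusted p = 0.00068). Lif was at 146, 209 and 168 against 289, 488 and 446, 2.30-fold higher (adjusted p = 0.0021). Osm was at 346, 383 and 411 against 731, 838 and 931, 2.18-fold higher (adjusted p = 0.00013). None of these groups overlapped. Csf1 was at 813, 839 and 729 against 1386, 1659 and 1686, 1.98-fold higher (adjusted p = 0.00014), and Il6 at 70.6, 73.8 and 54.5 against 109, 107 and 132, 1.75-fold higher (adjusted p = 0.0079). Those 2 groups did not overlap either, but the Il6 call was lost when all 36 libraries shared 1 estimate of the spread (adjusted p = 0.21).

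Csf3r was the member that stayed lower with DMF. It was at 256, 272 and 251 in LPS with DMF against 333, 604 and 465 in LPS, 1.75-fold lower (limma, adjusted p = 0.0086), and it remained 2.94-fold above DMSO (adjusted p = 2.86e-05). The ligand Csf3 and its receptor were therefore on opposite sides of LPS alone. Csf2rb was no longer lower, with a log2 fold change of 0.04 ± 0.10 (95% interval -0.19 to 0.27), and Csf2 had one of -0.00 ± 0.31 (95% interval -0.70 to 0.70). Measured against DMSO, all 8 members tested were called higher in LPS with DMF at 24 h, where 40.2% of 11649 genes were called, 20% higher. Csf2, Csf3 and Il6 passed the filter there only through the libraries with DMF, so they could enter the test only by differing.

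The difference between the DMF effects at the 2 times was tested as an interaction, in which 6 of 9 members were called, all toward higher at 24 h, with 16.3% of 11958 genes called, 8.45% higher. The DMF effect on Csf3 was 3.06 ± 0.50 higher at 24 h on the log2 scale (limma, adjusted p = 0.001), that on Lif 2.37 ± 0.31 (adjusted p = 0.00017) and that on Csf1 1.62 ± 0.17 (adjusted p = 3.08e-05). For Il6 it was 2.51 ± 0.73 (adjusted p = 0.029), a call lost in 6 of 12 refits that left out a library, with an adjusted p of up to 0.0727. The effect on Csf2rb differed by 1.18 ± 0.19 and that on Osm, already higher at 4 h, by 0.65 ± 0.16 (adjusted p = 0.00082 and 0.015). The DMF effect on Csf3r did not change detectably, with a difference of 0.03 and a 95% interval of -0.61 to 0.67.

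**Figure D3:**
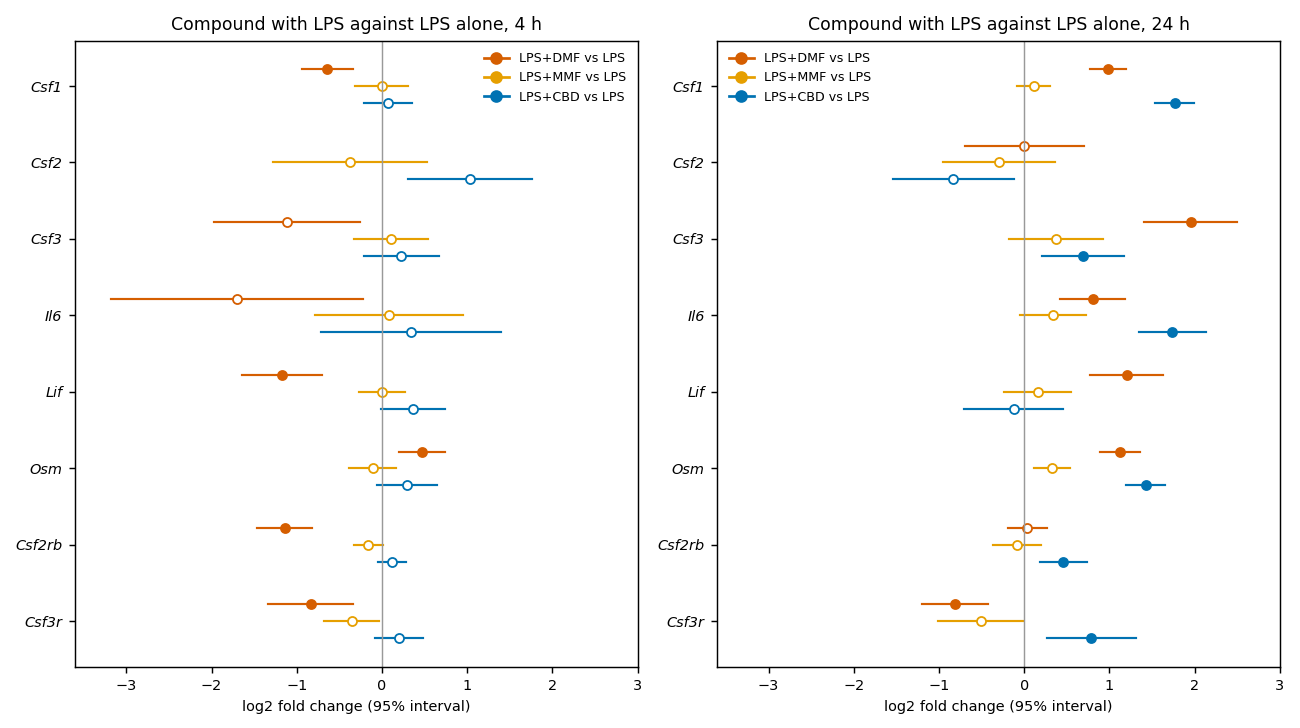
Log2 fold change of LPS with DMF, MMF or CBD against LPS alone at 4 h and 24 h for 8 members, with 95% intervals and filled points where the adjusted p was under 0.05. Points of DMF lie left of 0 at 4 h for all tested members but Osm and right of 0 at 24 h for Csf1, Csf3, Il6, Lif and Osm, points of CBD at 24 h are filled for all but Csf2 and Lif, and no point of MMF is filled.

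By limma no member was called between MMF and LPS alone at 4 h, of 9 tested, with 0.122% of 11431 genes called, or at 24 h, of 8 tested, with 0% of 11584 genes called. An unadjusted p under 0.05 was reached by 1 member at 4 h and 2 at 24 h, and edgeR and DESeq2 called 0 at both times. At 4 h the 95% intervals of the log2 fold change were -0.31 to 0.30 for Csf1, -0.27 to 0.27 for Lif, -0.39 to 0.17 for Osm and -0.33 to 0.54 for Csf3. They were wider for Il6, at -0.78 to 0.95, for Csf2, at -1.28 to 0.53, and for Il10, at -2.90 to 1.26. Neither receptor chain was called, with intervals of -0.68 to -0.03 for Csf3r (limma, adjusted p = 0.65) and -0.33 to 0.01 for Csf2rb (adjusted p = 0.70).

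At 24 h 3 members differed from LPS alone once the replicate number was used as a block, and same-numbered libraries of these groups did deviate together. The blocked fit called 206 of 11584 genes. Csf3r was at 244, 400 and 331 with MMF against 333, 604 and 465, lower in each numbered pair, with a log2 fold change of -0.51 ± 0.08 in the blocked fit (limma, adjusted p = 0.0006). Osm was at 495, 484 and 448 against 346, 383 and 411, with 0.32 ± 0.09 (adjusted p = 0.048). Csf3 was at 449, 890 and 540 against 368, 618 and 437, with 0.37 ± 0.08 (adjusted p = 0.0073).

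DMF and MMF are the methyl diester and monoester of fumaric acid and were given at the same dose of 30 µM for the same times. At 4 h 7 members were tested between them and 4 were called, 3 lower with DMF and 1 higher, with 8.34% of 11377 genes called, 4.97% lower and 3.37% higher. Csf2rb was 1.98-fold lower with DMF than with MMF, Lif 2.26-fold lower and Csf1 1.55-fold lower, and Osm was 1.5-fold higher (limma, adjusted p = 0.0035, 0.0078, 0.018 and 0.017). The calls of Csf1 and Osm were lost without LPS with DMF replicate 3 or LPS with MMF replicate 2 or 3, with an adjusted p of up to 0.0883 for both. Csf3 differed by -1.22 (95% interval -2.0 to -0.43, adjusted p = 0.061), Il6 by -1.79 (-3.12 to -0.45, adjusted p = 0.097) and Csf3r by -0.48 (-0.98 to 0.02, adjusted p = 0.22). Csf3 was called without LPS with DMF replicate 2 and Il6 without LPS with DMF replicate 1 (adjusted p = 0.00413 and 0.0164).

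At 24 h 5 of 8 members were called between the esters, all higher with DMF, with 21.5% of 11665 genes called, 10.1% higher. Csf3 was 2.99-fold higher with DMF, Lif 2.06-fold, Csf1 1.83-fold, Osm 1.74-fold and Il6 1.38-fold (limma, adjusted p = 0.0049, 0.0072, 0.00042, 0.00091 and 0.049). The Il6 call was lost in all refits without 1 library except that without LPS with MMF replicate 2, with an adjusted p of up to 0.186. No difference was called for Csf2rb (0.12, 95% interval -0.10 to 0.34), Csf2 (0.29, -0.40 to 0.98) or Csf3r (-0.30, -0.65 to 0.06), and the intervals do not show that the esters act alike on these genes. Without LPS with MMF replicate 1 Csf3r was called lower with DMF (adjusted p = 0.0318), and without LPS with MMF replicate 2 Csf2rb was called higher (adjusted p = 0.0402). For the ligands the diester was thus below the monoester at 4 h in Lif and Csf1 and above it at 24 h, while Osm was higher with the diester at both times.

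**Figure D4:**
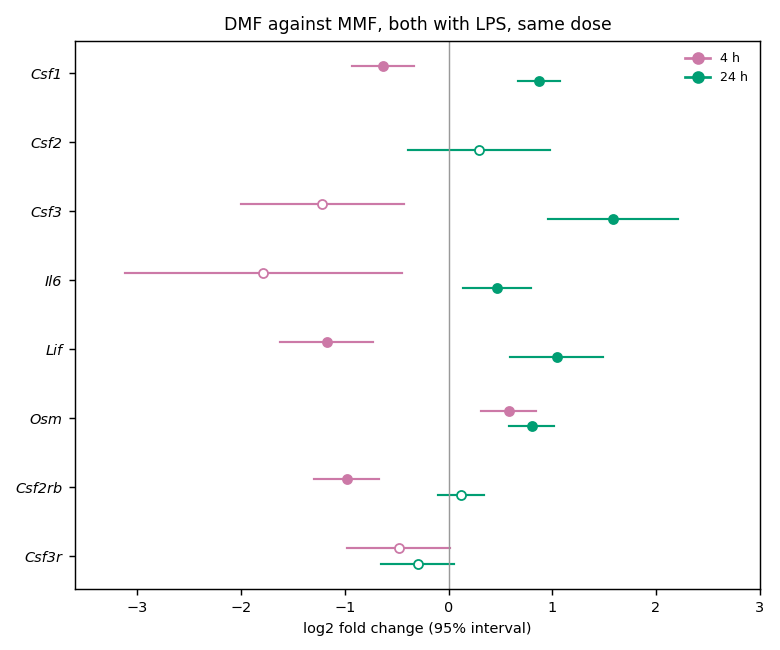
Log2 fold change of LPS with DMF against LPS with MMF at 4 h and 24 h, with 95% intervals and filled points where the adjusted p was under 0.05. Csf1, Csf3, Il6 and Lif lie left of 0 at 4 h and right of 0 at 24 h, and Osm lies right of 0 at both times.

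CBD had no called member at 4 h and 6 at 24 h. At 4 h limma called 0 of 8 members tested against LPS alone, with 0.00875% of 11424 genes called. An unadjusted p under 0.05 was reached by 1 member, and edgeR and DESeq2 called 0. That member was Csf2, which was at 38.3, 24.5 and 25.9 with CBD against 15.8, 9.49 and 17.0 without it. The groups did not overlap, as in 2 of the 8 members and 10.2% of all genes tested, and its log2 fold change was 1.03 ± 0.32 (adjusted p = 0.99).

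After 24 h with CBD M-CSF, OSM, interleukin-6, G-CSF and both receptor chains were higher than in LPS alone, where 48.7% of 11671 genes were called, 23.9% higher. Against that background 6 of 8 members tested were called, all higher, with a median log2 fold change of 0.74 over the 8 beside 0.00 over all genes tested. Csf1 was at 2433, 2606 and 3063 against 813, 839 and 729, 3.40-fold higher (limma, adjusted p = 4.1e-06). Il6 was at 202, 201 and 266 against 70.6, 73.8 and 54.5, 3.34-fold higher (adjusted p = 6.22e-05), and Osm at 1097, 920 and 1046 against 346, 383 and 411, 2.69-fold higher (adjusted p = 1.06e-05). These 3 were among 6 members without overlap, beside 58.7% of all genes tested.

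Csf3 was higher by less, at 845, 896 and 547 with CBD against 368, 618 and 437, overlapping through 1 library of each group. Its rise was 1.61-fold (limma, adjusted p = 0.024), and the call was lost with all 36 libraries in 1 fit (adjusted p = 0.22) and without CBD replicate 1 or 2 or LPS replicate 1 or 3 (adjusted p of up to 0.0869). Csf3r was at 640, 1078 and 696 against 333, 604 and 465, 1.73-fold (adjusted p = 0.018), a call lost without LPS replicate 1 or 3 (adjusted p = 0.0638 and 0.052). Csf2rb was at 2193, 2668 and 2143 against 1451, 1981 and 1691, 1.38-fold (adjusted p = 0.012). In the blocked fit Csf3, Csf3r and Csf2rb had adjusted p values of 0.0011, 2.37e-05 and 0.0002.

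Lif and Csf2 did not follow. Lif was at 161, 231 and 105 with CBD and 146, 209 and 168 without it, with a log2 fold change of -0.12 and a 95% interval of -0.70 to 0.45. Csf2 was at 9.48, 13 and 9.36 against 24.3, 15.0 and 20.2, below LPS alone without overlap, with a log2 fold change of -0.83 ± 0.32 (limma, adjusted p = 0.054). Without LPS replicate 2 it was called (adjusted p = 0.0409), and edgeR on the recovered reads called it lower (-0.88, adjusted p = 0.047). CBD and DMF were not tested against each other, since their doses and vehicles differ.

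Between the times the CBD effect changed for 3 of 8 members, with 32% of 11959 genes called. It was higher at 24 h by 1.70 ± 0.17 on the log2 scale for Csf1 and by 1.13 ± 0.19 for Osm, and lower by 1.86 ± 0.44 for Csf2 (limma, adjusted p = 1.48e-05, 0.00066 and 0.0055). In the blocked fit, which called 5201 of the 11959 genes, Il6 (1.4 ± 0.27), Csf3r (0.59 ± 0.15) and Csf2rb (0.34 ± 0.09) were called too, with adjusted p values of 0.00074, 0.0049 and 0.0082. Csf2 went from the highest of its 12 groups at 4 h with CBD, 29.6 ± 7.61, to 10.6 ± 2.07 at 24 h, on 9 to 38 reads a library. Within LPS with CBD all 8 members tested differed between the times, 6 higher and 2 lower at 24 h, with 63.2% of 11667 genes called, 31.6% higher and 31.6% lower. Lif and Csf2 were the 2 that fell, by 1.14 and 1.39 on the log2 scale (adjusted p = 0.0036 and 0.0029).

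Measured against vehicle at 4 h, 4 of 6 members tested were called for DMF, 3 higher and 1 lower (23.5% of 11449 genes called). For MMF 5 of 7 were called (8.22% of 11440) and for CBD 7 of 8 (13.6% of 11478), all higher. Of the CBD calls at 4 h that of Csf3r was lost in 5 of 6 limma refits without 1 library and that of Csf2 in 2 of 6. The adjusted p was up to 0.101 and 0.0714. At 24 h MMF had 6 of 8 members called against DMSO (22.4% of 11580 genes) and CBD 6 of 8 against EtOH (50.5% of 11858), all higher. Csf3 passed the filter in each of these comparisons only through the LPS-treated libraries. The same held for Il6 wherever it was tested, and for Csf2 with CBD at 4 h and with MMF at 24 h. In those comparisons these genes could enter only by differing, so the counts cannot be read against the shares of all genes. With CBD at 24 h Csf2 overlapped EtOH and was not called. These comparisons share LPS-treated or vehicle libraries with those above. Over time, all 8 members tested rose between 4 h and 24 h in LPS with DMF (58.8% of 11602 genes called, 29.7% higher), with Csf3 19.8-fold and Il6 11.4-fold higher. Csf2 passed the filter there only through the 24 h libraries. In LPS with MMF 7 of 8 differed, 5 higher and 2 lower (49.5% of 11545 genes called, 25.1% higher and 24.3% lower). The 2 lower were Csf1 and Lif, and the Lif call was lost without LPS with MMF replicate 3 at 24 h or replicate 2 at 4 h (adjusted p = 0.0792 and 0.0507).

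The signalling genes behind these receptors were described by a list of 12, all of which passed the filter. The list also holds Il4ra, which is itself a receptor chain. This list and that of the receptor chains below were chosen with earlier results of these data known. Their counts and medians are therefore a description, and the lists were not tested as sets. With LPS at 4 h 5 of the 12 were higher and 2 lower than in DMSO, beside 14.1% of all genes called. The median log2 fold change of the 12 was 0.54, beside 0.00 over all genes. Against EtOH 5 were called higher and only 1 lower, beside 10.2% of all genes called. The 5 higher than in DMSO were the feedback inhibitors Socs1, Socs3 and Cish (2.43, 1.90 and 1.78 on the log2 scale), the kinase Pim1 (1.63) and the NF-κB cofactor Bcl3 (1.73). The 2 lower than in DMSO were Stat5a and Stat5b (-0.56 and -0.41). With DMF at 4 h the same 5 inducible genes fell against LPS alone, with a log2 fold change of -1.28 for Socs1, -1.59 for Socs3, -1.73 for Cish, -0.98 for Pim1 and -1.32 for Bcl3, and Il4ra, a cytokine receptor chain, rose by 0.66, beside 11.1% of all genes called. Compared with MMF at 4 h, DMF had 7 of the 12 lower and none higher, with a median of -0.78, beside 8.34% of all genes called.

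At 24 h 9 of the 12 were higher with LPS than in DMSO and none lower, beside 22.7% of all genes called, among them Jak2 (0.75), Tyk2 (0.52) and Stat3 (0.30). Against EtOH 8 were called higher and none lower, beside 20.5% of all genes called. Of the 12 DMF then had 1 higher and 3 lower against LPS alone, near the 25.1% of all genes called, with Cish at -1.02, Jak2 at -0.40 and Stat5b at -0.38, whereas Socs3 (-0.01), Pim1 (-0.08) and Bcl3 (-0.07) were not called. CBD had 3 higher and 3 lower of the 12 at 24 h, near the 48.7% of all genes called. Cish (-1.59), Jak2 (-0.99) and Stat5b (-0.30) fell and Pim1 (0.53), Jak1 (0.37) and Stat3 (0.32) rose. Cish, a feedback gene of the STAT5 arm that GM-CSF and interleukin-3 use, was therefore lower with DMF at both times and with CBD at 24 h.

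**Figure D5:**
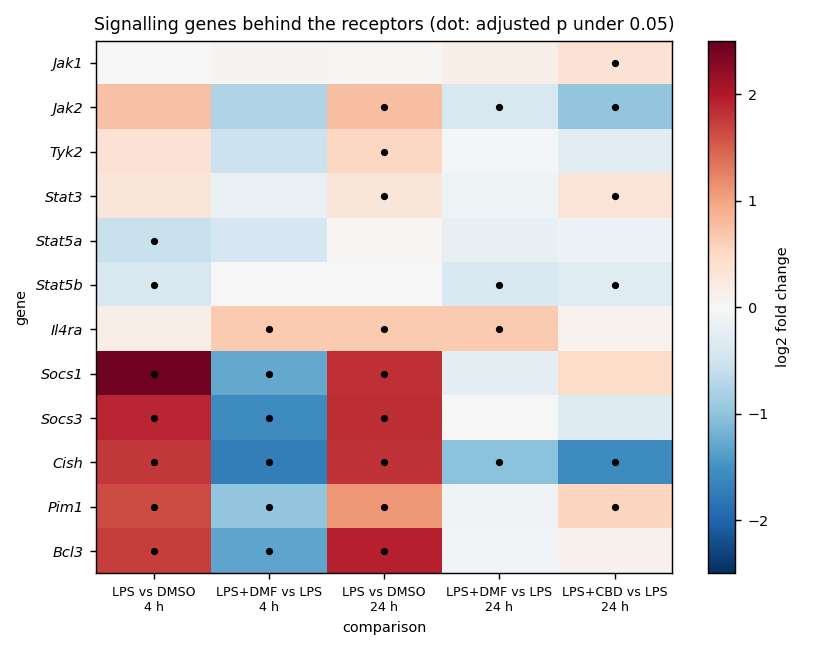
Colours give the log2 fold change of the 12 genes of the signalling list, the receptor chain Il4ra among them (rows), in 5 comparisons (columns). Red is higher and blue lower in the first-named group, and a dot marks an adjusted p under 0.05. Socs1, Socs3, Cish, Pim1 and Bcl3 are red with LPS at both times and blue with DMF at 4 h, and of these only Cish is dotted with DMF at 24 h.

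Of 14 further receptor chains 11 to 13 passed the filter. With LPS at 4 h 1 of 12 tested was lower than in DMSO and none higher, with 14.1% of all genes called. It was Lifr, the LIF receptor chain (-1.10 on the log2 scale, limma, adjusted p = 0.0031). Against EtOH at 4 h 2 were called lower and none higher, with 10.2% of all genes called. At 24 h 2 of 11 tested were higher than in DMSO and 2 lower, with 22.7% of all genes called. Lifr was again lower at 24 h (-0.70). Csf2ra, the GM-CSF binding chain, was higher than in DMSO at 24 h by 0.88 (limma, adjusted p = 3.64e-05) and Il10rb by 1.42, and Csf2rb2 was lower by 0.46. Against EtOH at 24 h only 1 chain was called higher and 2 lower, with 20.5% of all genes called. With DMF at 4 h 2 of 11 tested were lower than in LPS alone and none higher, with 11.1% of all genes called. These were Csf2rb2 (-0.91) and Csf1r (-0.58), next to the lower member Csf2rb. CBD at 24 h had 5 higher and 4 lower of 12 tested, beside 48.7% of all genes called. The GM-CSF and interleukin-3 chains Csf2rb2 (1.67), Csf2ra (0.52) and Il3ra (0.62) rose with Il6st, which encodes gp130 (0.46), and Il10rb (1.05), while Il10ra (-1.92), Lifr (-1.32), Il6ra (-0.92) and Csf1r (-0.87) fell. Il6 and Csf1 were thus higher with CBD at 24 h while the genes for their own receptors, Il6ra and Csf1r, were lower.

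The likeness of each member to other genes was measured as Pearson's r of log2 group means over the 12 groups, among 10558 genes that reached 50 normalized counts in a group. The points share libraries and treatments, and the values are a description. Csf3 and Il6 were each other's second most alike gene (r = 0.97), and both had Mocs1, a molybdenum cofactor enzyme, among their 3 (0.97 and 0.995). Rhbdf2, which encodes the adaptor iRhom2 of the TNF-releasing protease, was the gene most like Csf3 (0.99). Csf3r was most like Cd38 (0.98), followed by Cp and Cd33, and Csf2rb was most like Pik3r6 (0.98), Apobec1 and Slc28a2b. Csf1 was most like Peli1 (0.95), Trim25 and Slc7a8, Osm most like Zfp617 (0.95), Anxa7 and Nfat5, and Lif most like Adora2b (0.95), Pde4b and Rnf34. The third gene of Il6 was H2-D1 (0.97). Among the members themselves r ran from 0.27 for Lif with Csf3r to 0.97 for Csf3 with Il6, with 0.40 for the neighbours Lif and Osm.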

How the data were processed

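RNA of 36 BV-2 cultures was sequenced in read pairs. The authors trimmed reads with Cutadapt 4.4 and Trimmomatic 0.39, aligned them to GRCm39 with HISAT2 2.2.1, counted genes with HTSeq 2.0.3 and deposited 30 tables of normalized counts, a signal equal to reads divided by the DESeq2 (1.40.2) size factor of the 6 libraries in each table. The log2 fold changes, p-values and adjusted p-values of the authors' own comparisons in these tables were not used. The 155 of 180 library columns first found to hold whole reads gave 2695078 values, all whole within 0.01 after the size factor was undone. Reads of the other 25 columns were taken from tables that shared their libraries. The size factors were 0.750 to 1.53.

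Each comparison was fitted with limma 3.58.1 (R 4.3.3, moderated with a mean-variance trend) on log2(normalized count + 1) over its own 6 libraries, for genes with at least 10 in 3 of 6, with Benjamini-Hochberg adjustment over all genes and calls under 0.05. A fold change on this scale understates the change of low genes. Changes between times were interactions over 12 libraries scaled together. Errors of log2 values are SE, and intervals are 95%. The unblocked limma and edgeR fits were run on simulated counts with known changes. Pairing of libraries was not simulated, so the replicate block was not tested in this way. Counts of single libraries cover counting error only, and a count of 0 allows up to 3 counts of the total. Alternatives were edgeR 4.0.16 (quasi-likelihood) and DESeq2 1.42.0 on the recovered reads, no filter, a pseudocount of 0.5, all 36 libraries in 1 fit, the replicate block and leaving out each library. Over all genes edgeR called 1268 and DESeq2 1458 for DMF against LPS alone at 4 h, beside 1257 by limma.

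Replicate numbers paired the libraries where each same-numbered pair's deviations from the group means correlated above 0.1. This held for DMF, MMF and CBD against LPS alone at 24 h, DMF and CBD at 4 h, DMF against MMF at 24 h, the vehicles, and LPS and LPS with MMF between times. No block exists against vehicles, whose numbers differ. The paired libraries may be separate experiments, so p-values measure the spread between these libraries. The 10 members and the lists of receptor chains, other ligands, signalling genes and markers were chosen with earlier results of these data known. The named genes were all 10 members, the list genes called in a comparison and the 3 most alike genes of each member. Promoters were read from GRCm39 at the canonical GENCODE start, and exon lengths from the same annotation. The promoter of 1 member is not reported here.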

Additional observations from a re-analysis of the deposited data

Results flagged for a closer look

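The values below are differences between the 24 h and the 4 h effect of a treatment on the log2 scale, each from the interaction test by limma over all genes, and each was singled out because that difference passed the threshold. They are given with no explanation.

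For LPS against DMSO the difference was -1.72 ± 0.23 for Csf1, -1.24 ± 0.16 for Osm, -0.76 ± 0.21 for Lif and 1.84 ± 0.29 for Csf3r. For LPS against EtOH, with the same LPS libraries, it was -1.52 ± 0.19 for Csf1, -1.56 ± 0.16 for Osm, -0.82 ± 0.24 for Lif, 2.03 ± 0.28 for Csf3r and -3.49 ± 0.91 for Il10. The Lif calls were lost in 8 of 12 refits without 1 library in both (adjusted p of up to 0.0917 and 0.108), and the Il10 call, which rests on 0 to 18 reads a library, in 7 of 12 (adjusted p of up to 0.0806).

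For DMF against LPS alone it was 1.62 ± 0.17 for Csf1, 1.18 ± 0.19 for Csf2rb, 3.06 ± 0.50 for Csf3, 2.51 ± 0.73 for Il6, 2.37 ± 0.31 for Lif and 0.65 ± 0.16 for Osm. The Il6 call was lost without LPS with DMF replicate 3 at 4 h, LPS with DMF replicate 2 or 3 at 24 h, LPS replicate 2 at 4 h or LPS replicate 1 or 3 at 24 h, with an adjusted p of up to 0.0727. The Osm call was lost without LPS with DMF replicate 3 at 24 h (adjusted p = 0.0503). In the fit blocked on replicate number Il10 was called too (2.19 ± 0.65, adjusted p = 0.0285). For CBD against LPS alone it was 1.70 ± 0.17 for Csf1, -1.86 ± 0.44 for Csf2 and 1.13 ± 0.19 for Osm. For MMF against LPS alone no member was called by limma, edgeR or DESeq2, with 1 at an unadjusted p under 0.05 and 0% of 11839 genes called.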

How the results depend on the processing

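Of 235 member values over the comparisons, 159 were called under at least 1 setting, and none of these changed sign under any alternative run. The other 76 were called under none, and 29 of them changed sign under some, to at most 0.72 in size on the log2 scale. Of the 159, edgeR moved 2 across the threshold, DESeq2 8 of 155 with a value, the fit without a filter 5, all 36 libraries in 1 fit 11 of 133 and the pseudocount of 0.5 none. The replicate block moved 11 of 84, all toward a call.

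The replicate block changed 3 counts of members called beyond 1.5 times. DMSO against EtOH at 4 h went from 0 to 1, MMF against LPS alone at 24 h from 0 to 3, and the change of the CBD effect between times from 3 to 6. Pairing was not borne out for DMF against MMF at 4 h, where the block gave 6 members in place of 4, and a replicate number was then only shared.

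Leaving out 1 library moved 5 counts that far. For DMF against LPS alone at 4 h the count was 2 to 5, lowest without LPS with DMF replicate 3 and 3 without LPS replicate 2 or 3. For DMF against MMF at 4 h it was 2 to 5, lowest without LPS with DMF replicate 3 or LPS with MMF replicate 2 or 3. For LPS with MMF against DMSO at 24 h it was 3 to 6, lowest without DMSO replicate 6. The change of the LPS effect against EtOH gave 3 to 5, lowest without LPS replicate 2 or 3 or EtOH replicate 4 or 6 at 4 h or EtOH replicate 6 at 24 h, and that of the CBD effect 3 to 5, highest without LPS replicate 2 at 24 h. The causes were not tested. Depth limits Csf2, Il10 and Il12b, whose libraries held at most 38, 18 and 7 reads.

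Counts over all genes moved beyond 1.5 times in some comparisons. With all 36 libraries in 1 fit, LPS against DMSO at 4 h went from 1609 genes to 2435, LPS with DMF against DMSO at 4 h from 2690 to 4297, DMF against LPS alone at 4 h from 1257 to 2580 and DMF against MMF at 4 h from 949 to 2422. With the replicate block DMF against LPS alone at 24 h went from 2926 to 4566, and DMF against MMF from 949 to 1740 at 4 h and from 2508 to 4639 at 24 h. MMF against LPS alone at 4 h gave 14 genes, 51 by DESeq2, 55 with all 36 libraries and 179 blocked, and at 24 h 0 genes, 18 by DESeq2, 3 without a filter, 6 with all 36 libraries and 206 blocked. DMSO against EtOH gave 0 genes at 4 h, 80 by DESeq2, 3 with all 36 libraries and 876 blocked, and 1 gene at 24 h, 3 by DESeq2, 0 with all 36 libraries and 20 blocked. CBD at 4 h gave 1 gene and 2 to 4 under 4 of the alternatives, and the change of the MMF effect 0 and, blocked, 5.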

Other observations

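Of 15 further ligands of these families 14 were found in the files, and 3 to 5 passed the filter in a comparison. Il27, a subunit of interleukin-27, rose by 2.27 on the log2 scale with LPS against DMSO at 4 h and by 2.42 at 24 h (limma, adjusted p = 0.0018 and 3.92e-05), and Ebi3, its partner subunit, by 2.18 at 24 h. With DMF Il27 fell against LPS alone by 2.5 at 4 h and by 0.77 at 24 h (adjusted p = 0.00094 and 0.0143). Il23a, the subunit that pairs with the product of Il12b, fell with DMF by 0.64 at 4 h and rose by 1.06 at 24 h (adjusted p = 0.0105 and 0.0073), while Il12b itself stayed at or under 7 reads a library. With CBD at 24 h Il27 fell by 2.10 and Il23a rose by 0.64 (adjusted p = 0.00098 and 0.041). Il11, a gp130 cytokine, was higher with DMF at 24 h by 1.18 (limma, adjusted p = 0.029). In that comparison 4 of these ligands were tested, beside 3 in LPS against DMSO and 3 in CBD against LPS alone at 24 h. A ligand that passed the filter only through the libraries of 1 group could enter the test only by differing, so its call adds little to its level.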
